A study of Bos taurus with 46 samples.

Results

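The 40 genes described here encode enzymes, or close relatives of enzymes, that place or remove methyl groups on histone lysines, and they were followed in circulating leukocytes of pregnant heifers. The set was given by symbol, and 40 of 40 symbols were found among the 30675 genes of the NCBI RefSeq count table. It was assembled because *KDM5A* had been seen at a high level in heifers 604 and 664 on D105, so the D105 contrast of these 2 heifers with the others was the contrast the members were chosen by. Values from that contrast are therefore given as a description and without a test. The remaining questions were whether the other members moved with *KDM5A*, and how the family behaved by day and by group. The study took blood from 23 Angus crossbred heifers in the second year of life at breeding, on D55 and again on D105 of gestation, with 1 leukocyte library per heifer and day (46 libraries). Of these, 8 had conceived by artificial insemination (AI, the control group). Another 6 carried an in vitro produced fetus of normal weight (IVP-Normal), and 9 carried an in vitro produced fetus that was overgrown (IVP-LOS, large offspring syndrome). Overgrowth was defined by fetal weight at the D105 collection against the AI fetuses of the same sex, so a heifer had the same group label on D55, before her fetus was weighed. All fetuses had a Brahman sire, and IVP recipients were given embryos in pairs. A heifer of either IVP group could carry a further fetus, as heifer 604 of the IVP-LOS group did. Heifers 604 and 664 belonged to the IVP-LOS group and carried its heaviest fetuses.

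Histone lysine methylation is read by the cell as a mark of chromatin state. Methylation of H3 lysine 4 sits at promoters and enhancers in use and is written by the *KMT2* and *SETD1* enzymes, while *KDM1A* and the *KDM5* enzymes take it away. Methylation of H3 lysine 9 and lysine 27 accompanies silenced chromatin, and lysine 36 and lysine 79 are methylated along transcribed gene bodies. In leukocytes *EZH2* and the *KMT2* genes are known for their part in lymphoid and myeloid differentiation, and *KDM6B*, the H3 lysine 27 demethylase also called JMJD3, is known as a gene that inflammatory stimuli induce in myeloid cells.

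Reads on genes numbered 18692653 to 24502012 in a library (median 22934800). All 40 members passed the expression filter in each of the 15 comparisons, and their lowest count in any library was 50 reads (*SMYD2*). Counting error was not separated from the variation among heifers, and it weighs most on the members with the fewest reads, *SMYD2* and *SMYD3*. The D105 libraries of the pair stood apart. They had the lowest totals, 18692653 reads in 604 and 19641136 in 664 against 21775579 to 24473385 in the other 21. The share of reads that fell on no gene was 38.0% in 604 and 36.1% in 664, against 23.9% to 30.5% in the others. On D55 that share was 25.8% and 23.8% in the pair, inside the range of the others. By the sample labels, D105 libraries of AI and IVP-LOS heifers form a set named BACKUP, and all remaining libraries form a set named New. Levels are given as CPM (read counts scaled to a common library total) with TMM factors over all 46 libraries, and a gene is called at a Benjamini-Hochberg FDR of at most 0.05 over all genes tested. The libraries are bulk leukocyte RNA, in which a smaller number of cells of a type and less RNA per cell cannot be told apart. *PTPRC*, which encodes the pan-leukocyte antigen CD45, ranged from 1791 to 2427 CPM over the 46 libraries.

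*KDM5A*, an H3 lysine 4 demethylase that binds the retinoblastoma protein, was at 156.9 CPM in heifer 604 and 186.7 CPM in heifer 664 on D105. In the other 21 heifers it ranged from 69.97 to 115.5 CPM, with a mean of 90.4 ± 9.18 (SD, n = 21). Both heifers lay above every other heifer, at 1.74 and 2.07 times that mean, and the fitted log2 fold change was 0.89 (SE 0.10). On D55 the same heifers had 84.8 and 77.0 CPM, inside the range of 54.0 to 109.5 CPM of the others. *KDM5B*, the closest relative of *KDM5A* among the members and a demethylase of the same lysine, took the opposite direction. It was at 32.4 CPM in 604 and 26.9 CPM in 664 on D105, against 28.0 to 108.5 CPM in the others (median 59.7). Heifer 664 lay below every other heifer and 604 lay above 1 of them. The log2 fold change was −1.12 (SE 0.29). Reads on *KDM5A* per read on *KDM5B* came to 4.84 in 604 and 6.93 in 664 on D105, against 1.02 to 2.69 in the others (median 1.46). On D55 this ratio was 1.47 and 2.04, against 0.950 to 3.55 in the others.

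**Figure D1:**
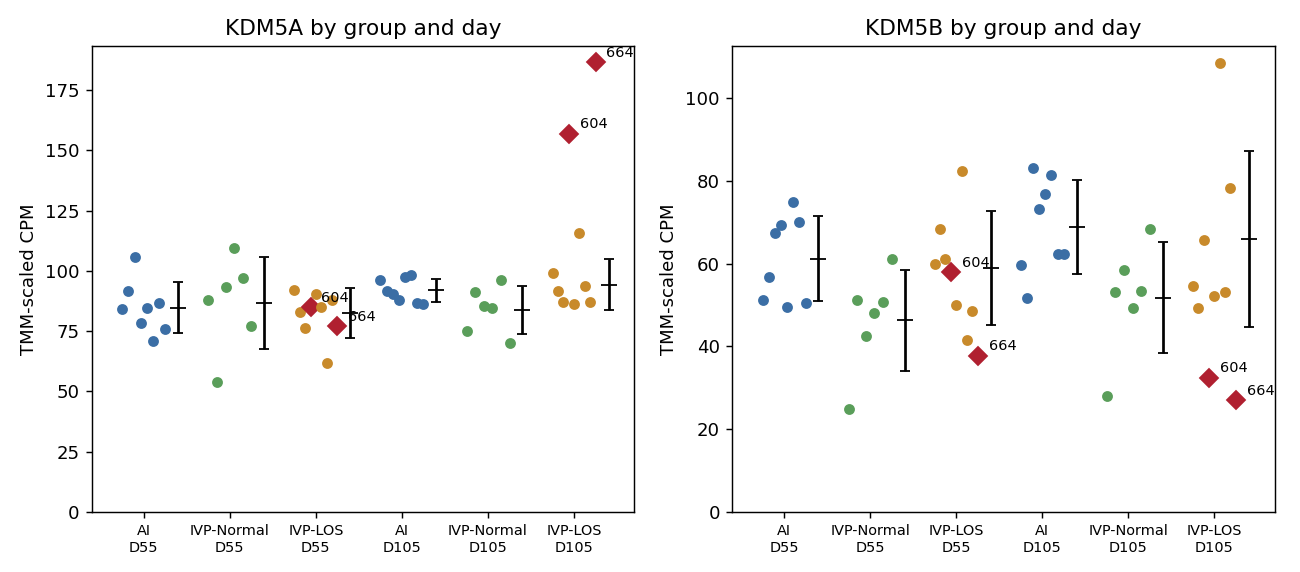
Levels of *KDM5A* and *KDM5B* (TMM-scaled CPM, vertical axis) in each heifer by group and day. Each point is 1 library, diamonds are heifers 604 and 664, and the bars beside the points give mean and SD of the group without these 2. On D105 the *KDM5A* diamonds stand at 156.9 and 186.7 CPM above all other points, while the *KDM5B* diamonds stand at 32.4 and 26.9 CPM near the bottom of their panel, and on D55 the diamonds lie among the other points.

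No other member stood above the 21 heifers in both animals of the pair on D105. Of the 40 members, 13 had a log2 fold change above 0 in the pair and 27 below, with a median of −0.11, against −0.02 over all 16841 genes tested. In this contrast 21.1% of all genes tested were called, 11.6% higher and 9.48% lower. As a description of the contrast the members were chosen by, and not as a test of them, 6 members passed this threshold, *KDM5A* higher and 5 lower (*KDM7A*, *KDM5B*, *NSD3*, *SETD1B* and *SETD5*). Under DESeq2's likelihood ratio test 8 passed, these 6 with *EHMT2* higher and *SETD7* lower, beside 4464 of all 16841 genes. With 1 of the pair left out, its side of the contrast is a single library whose spread is taken from the other heifers, and 3.27% of all genes passed without 604 and 4.17% without 664. These fits are no test of the members, which were chosen by this contrast, so only fold changes are given for them. The fold changes of the 6 members stayed near their values with both heifers. That of *KDM5A* was 1.02 without 604 and 0.76 without 664. That of *KDM7A* was −1.37 without 604 and −1.21 without 664, that of *SETD1B* −0.76 and −0.62, and that of *NSD3* −0.69 and −0.72. Both heifers lay above all others for 1 member, *KDM5A*, and for 7.97% of all genes. They lay below all others for 4 members (*KDM7A*, *NSD3*, *SETD1B* and *SETD5*) and for 6.21% of all genes.

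Among the H3 lysine 4 methyltransferases, *SETD1B*, the catalytic subunit of a COMPASS complex, was at 100.1 CPM in 604 and 90.3 CPM in 664 on D105. The other heifers ranged from 118.4 to 225.1 CPM (median 147.8), so the groups did not overlap, and the log2 fold change was −0.69 (SE 0.15). Its paralogue *SETD1A* was on the other side of 0, at 0.15 (SE 0.10), with 101.1 CPM in 604, above all others, and 84.1 CPM in 664, inside their range of 68.9 to 98.0 CPM. *KMT2E*, a SET-domain protein related to the *KMT2* enzymes, split the pair. It was at 429.6 CPM in 604, with 19 of the others above it, and at 679.0 CPM in 664, above the highest of the others, 617.8 CPM. The remaining lysine 4 methyltransferases *KMT2A*, *KMT2B*, *KMT2C* and *KMT2D* had log2 fold changes between −0.26 and −0.05. Of the SMYD and SETD7 enzymes, *SETD7*, a monomethyltransferase of lysine 4 and of many proteins other than histones, was at 15.3 CPM in 604 and 8.64 CPM in 664 against 11.9 to 29.0 CPM in the others. Only heifer 664 lay outside that range, and the log2 fold change was −0.74 (SE 0.27). *SMYD3* split the pair as well, with 8.20 CPM in 604, above all others, and 4.81 CPM in 664, inside their range of 4.53 to 6.96 CPM.

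The writers of the silencing marks on H3 lysines 9 and 27 had log2 fold changes between −0.10 and 0.22. The 4 H3 lysine 9 methyltransferases had a median log2 fold change of 0.07, and the highest of them was *EHMT2*, also known as G9a, at 0.22 (SE 0.09). *EHMT2* was at 175.8 CPM in 604 and 161.2 CPM in 664 against 119.3 to 163.6 CPM in the others, with 1 of them above 664. The Polycomb enzymes *EZH1* and *EZH2* were at −0.03 (SE 0.12) and 0.12 (SE 0.15). *EZH2* was at 64.7 CPM and 66.8 CPM in the pair, inside the range of 45.0 to 80.9 CPM of the others. All 6 H3 lysine 36 methyltransferases were below 0, with a median of −0.15. *NSD3* had the lowest value of the 6, with 94.1 CPM in 604 and 95.5 CPM in 664 against 98.4 to 195.1 CPM in the others (log2 fold change −0.71, SE 0.21). *SETD5* was at 199.5 and 200.5 CPM against 211.0 to 276.6 CPM (−0.33, SE 0.09). For both genes the pair lay just under the lowest of the other heifers. *NSD1*, *NSD2*, *SETD2* and *ASH1L* had log2 fold changes between −0.18 and −0.02. *DOT1L*, the H3 lysine 79 methyltransferase, was at −0.12 (SE 0.08), and the 3 H4 lysine 20 methyltransferases lay between −0.16 and 0.01.

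Among the demethylases, *KDM7A*, which acts on H3 lysines 9 and 27, had the lowest fold change of all members. It was at 42.2 CPM in 604 and 37.4 CPM in 664 on D105 against 55.0 to 166.7 CPM in the others (median 91.4), with a log2 fold change of −1.29 (SE 0.29) and no overlap. *KDM6B* was at 121.7 and 107.5 CPM against 92.3 to 375.9 CPM in the others. With 4 of the other heifers below 604 and 2 below 664, its log2 fold change of −0.89 had an SE of 0.46. *JMJD1C* was at 140.4 CPM in 604, below all others, and at 200.5 CPM in 664, inside their range of 159.1 to 374.8 CPM. The LSD demethylases *KDM1A* and *KDM1B* had log2 fold changes of 0.23 (SE 0.14) and 0.10 (SE 0.17), with the pair inside the range of the others for both genes. *KDM1A* was at 81.3 and 90.4 CPM against 54.4 to 91.6 CPM, and *KDM1B* at 104.9 and 140.5 CPM against 86.5 to 158.6 CPM. The H3 lysine 36 demethylases *KDM2A* and *KDM2B* were at 0.02 (SE 0.08) and −0.12 (SE 0.09). Of the 7 H3 lysine 9 demethylases, *KDM4B* alone was above 0 (0.07, SE 0.14).

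**Figure D2:**
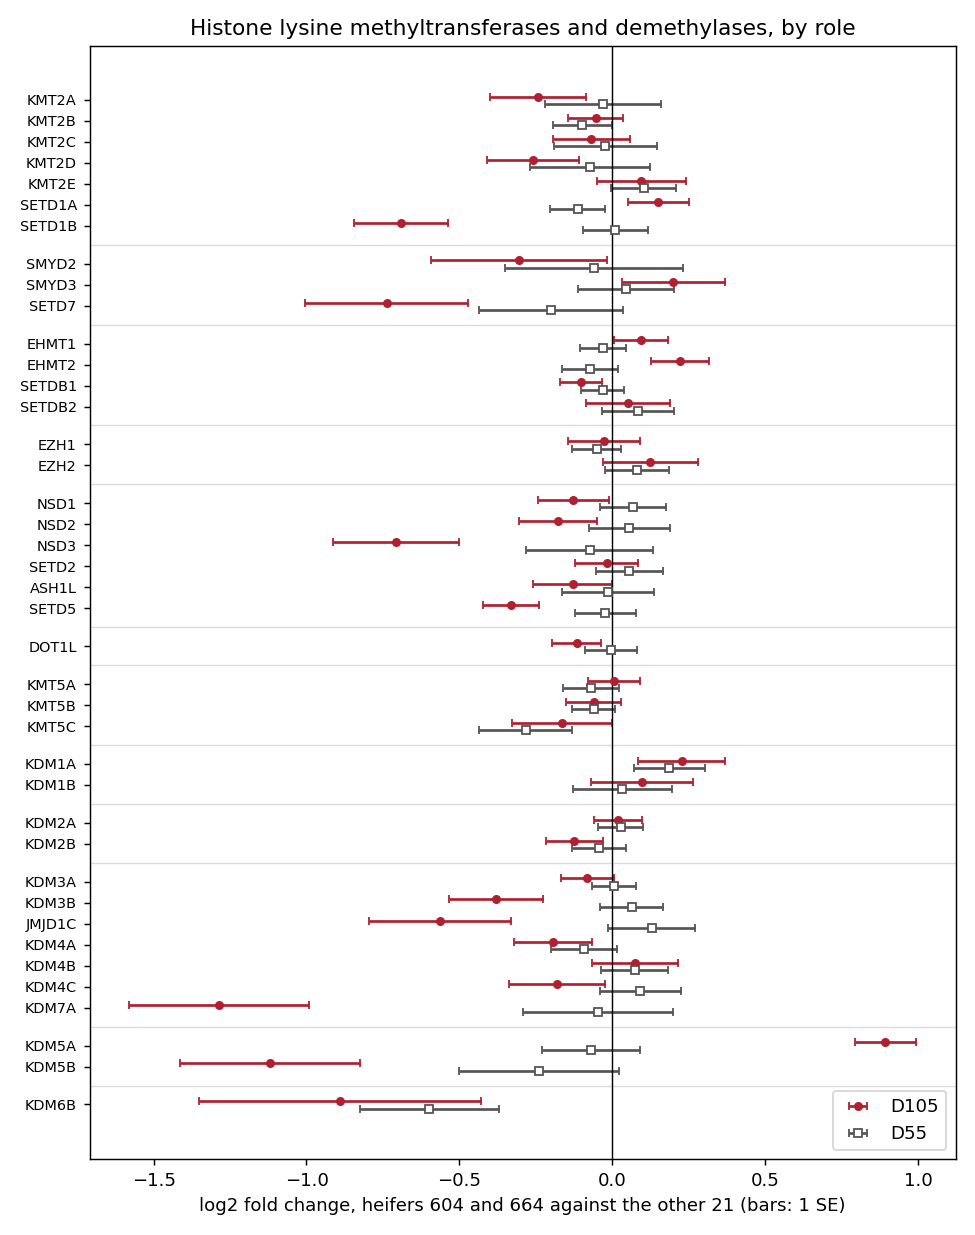
Log2 fold change of each member (horizontal axis, bars give 1 SE) between heifers 604 and 664 and the other 21 heifers, on D105 (filled circles) and D55 (open squares), with members ordered by role and roles set apart by grey lines. On D105 *KDM5A* stands alone at 0.89 on the right, *KDM7A* (−1.29), *KDM5B* (−1.12) and *KDM6B* (−0.89) lie farthest to the left, and on D55 the members lie between −0.60 and 0.19.

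Lists of related genes that are no members were counted in the same contrast, namely 19 other writers and erasers and 32 partners of the complexes these enzymes work in. Of the other writers and erasers, 18 were in the table and tested, 1 was called lower (*PHF8*, a demethylase of H3 lysine 9 and H4 lysine 20, log2 fold change −0.36, SE 0.09) and the median was −0.09. Of the 32 complex partners, 3 were called higher and 2 lower, with a median of −0.02. *CXXC1* and *DPY30*, subunits of the complexes that contain *SETD1A* and *SETD1B*, were at 0.71 (SE 0.18) and 0.51 (SE 0.13), and *PAXIP1*, which works with *KMT2C* and *KMT2D*, was at 0.31 (SE 0.10). The lower partners were *ATF7IP*, the cofactor of *SETDB1*, at −0.52 (SE 0.11) and *PHF19*, a Polycomb accessory protein, at −0.39 (SE 0.09). These 5 and *PHF8* are named because they were the ones called, and the share of all genes called in this contrast is the 21.1% given above.

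On D55, in blood of the same heifers, no member was called between the pair and the others (edgeR, smallest FDR = 0.947), where 0.0179% of all genes were called. At an unadjusted p under 0.05 there was 1 member, *KDM6B* (log2 fold change −0.60, SE 0.23, FDR = 0.947), beside 4.72% of all genes, and DESeq2 called 0 members. The heifers of the pair had 75.9 and 53.3 CPM of *KDM6B* on D55 against 57.0 to 147.8 CPM in the others. *KDM5A* had a log2 fold change of −0.07 (SE 0.16, FDR = 0.983). For 0 members did both heifers lie outside the range of the others, against 0.843% of all genes on that day.

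Change from D55 to D105 was also followed within each heifer, on log2 CPM with a pseudocount of 1. *KDM5A* changed by 0.88 in 604 and 1.27 in 664, and by −0.37 to 0.75 in the other 21 heifers (median 0.10), 11 of which were above 0. It was the only member for which both heifers changed by more than every other heifer, as they did for 7.04% of all genes tested on D105. *SETD1B* changed by −0.61 and −0.69 against −0.30 to 0.51 in the others, and *KDM5B* changed by −0.82 and −0.47 against −0.46 to 0.68. These were the 2 members for which both heifers lay below all others, as they did for 4.62% of all genes. The D105 side of these changes is that of the contrast the members were chosen by, so they are a description as well. *KDM7A* fell by 1.27 in 604, below all others, and by 0.88 in 664, inside their range.

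Markers of several blood cell types moved with the pair on D105. Of the 6 neutrophil markers, 5 had reads and were summed (*CXCR2*, *S100A8*, *S100A9*, *MMP9* and *PADI4*, with *CSF3R* not analysed here). Their sum was 72.5 CPM in 604 and 93.9 CPM in 664 against 179 to 5595 CPM in the others, and for 4 of the 5 both heifers lay below every other heifer. The 5 monocyte markers summed to 118.1 and 93.9 CPM against 208 to 1860 CPM, with 4 of 5 below all others. The B cell markers summed to 3783 and 5009 CPM against 1168 to 4255 CPM, with 2 of 5 above all others, and the T cell markers to 1047 and 783 CPM against 741 to 1452 CPM. Natural killer cell markers summed to 280 and 173 CPM against 188 to 479 CPM. Platelet markers summed to 2598 CPM in 604, above all others, and 333 CPM in 664, against 124.8 to 714 CPM. Erythroid markers summed to 603 and 140 CPM against 11.2 to 152 CPM, and of these *HBA* and *SLC4A1* were at or close to 0 in the 46 libraries. The 2 eosinophil markers with reads summed to 138 and 41.0 CPM against 14.6 to 88.4 CPM, with *EPX* not analysed here. On D55 the neutrophil sum was 181 and 134 CPM in the pair against 115.3 to 496 CPM in the others. The part of these cells in the D105 values of the members was not tested, beyond the relation in the other heifers given further on.

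With the share of reads on no gene as a covariate, 0 members and 0 of all 16841 genes were called between the pair and the others on D105. The log2 fold change of *KDM5A* was then 0.75 (SE 0.20). Those of *SETD1B* and *KDM7A* came to −0.18 (SE 0.24) and −0.47 (SE 0.46), those of *NSD3* and *KDM5B* to −0.39 (SE 0.36) and −0.48 (SE 0.47), and that of *SETD5* to −0.31 (SE 0.17). Because the pair had the highest shares of all heifers on that day, the covariate and the contrast can hardly be told apart. With the 7 other IVP-LOS heifers as the only reference, all of the set BACKUP, the fitted *KDM5A* value was 0.82 (SE 0.13), again as a description.

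The groups were then compared on each day. Between IVP-Normal and AI, IVP-LOS and AI, and IVP-LOS and IVP-Normal, edgeR called 0 members on D55 and 0 on D105, and 0% of all genes (0 of 15236 to 15484 tested). DESeq2 also called 0 members in each of the 6 comparisons, and 1 to 43 of all genes. At an unadjusted p under 0.05 the members numbered 8, 3 and 1 on D55, beside 9.92%, 7.74% and 5.19% of all genes, in the order given. On D105 they numbered 3, 2 and 2, beside 9.57%, 5.76% and 3.24%. The smallest FDR of any member was 0.493 (*KMT2E*, IVP-Normal against AI on D55, log2 fold change 0.21, SE 0.08). *KDM5A* was at 84.7 ± 10.7 CPM in AI (SD, n = 8), 86.5 ± 19.1 in IVP-Normal (n = 6) and 82.1 ± 9.30 in IVP-LOS heifers (n = 9) on D55. On D105 it was at 91.9 ± 4.85 in AI, 83.8 ± 9.80 in IVP-Normal and 111.5 ± 36.1 in IVP-LOS heifers, and at 94.3 ± 10.4 in the 7 IVP-LOS heifers other than 604 and 664. The log2 fold change of IVP-LOS against AI on D105 was 0.27 (SE 0.14, edgeR FDR = 0.754), and without 604 and 664 it was 0.04 (SE 0.06, FDR = 0.9998). Against IVP-Normal it was 0.42 (SE 0.17, FDR = 0.999) with these 2 heifers and 0.18 (SE 0.09, FDR = 0.625) without them. On D105 the IVP-Normal libraries and those of the other groups also differ in library set, so group and set cannot be told apart there. The other writers and erasers and the complex partners gave 0 calls in the 6 comparisons as well.

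Between D55 and D105, *KDM6B* was the member that changed most, and it was higher on D105 in all 23 heifers, though by no more than 0.00309 in log2 CPM in the heifer with the smallest change. In AI heifers it went from 81.3, 98.8 and 106.6 CPM on D55 (lowest, median, highest) to 113.7, 212.9 and 350.4 CPM on D105, without overlap. The log2 fold change was 1.31 (SE 0.21, edgeR FDR = 0.000472), in a comparison in which 9.95% of all genes were called and 7.21% were called higher. In IVP-Normal heifers it went from 57.0, 97.2 and 147.8 CPM to 92.3, 188.4 and 375.9 CPM (1.14, SE 0.29, FDR = 0.0612). In IVP-LOS heifers it went from 53.3, 94.2 and 130.9 CPM to 107.5, 131.2 and 355.2 CPM (0.78, SE 0.23, FDR = 0.144). In the latter groups the days overlapped, and 0 members were called where 2.45% and 0.251% of all genes were. At an unadjusted p under 0.05 there were 11 members in IVP-Normal and 3 in IVP-LOS heifers, beside 13.3% and 12.6% of all genes. DESeq2 called 3 (*KDM6B* and *EZH1* higher, *KMT2E* lower) and 1 (*KDM6B*), beside 4.91% and 2.22% of all genes. These fits treat the libraries of both days as separate samples. With the heifer as a replicate block, 17.1% of all genes were called in AI, 5.5% in IVP-Normal and 1.07% in IVP-LOS heifers, and *KDM6B* was called in each group, at 1.21 (SE 0.20, FDR = 0.0018) in AI, 1.07 (SE 0.18, FDR = 0.0063) in IVP-Normal and 0.72 (SE 0.15, FDR = 0.0468) in IVP-LOS heifers. Without 604 and 664 the blocked IVP-LOS value was 0.68 (SE 0.18, FDR = 0.102), where 1.12% of all genes were called. In AI and IVP-LOS heifers the day coincides with the library set, and the 2 cannot be told apart. In IVP-Normal heifers both days are of the set New. The paper places D55 blood in winter and D105 blood in summer for heifers whose libraries clustered together. Day and season were not separated in any group.

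*JMJD1C*, a large Jumonji-domain protein related to the H3 lysine 9 demethylase *KDM3A*, was the other member called in AI heifers. It went from 166.8, 179.7 and 207.9 CPM to 194.9, 257.9 and 342.5 CPM (0.53, SE 0.11, edgeR FDR = 0.00556) and was higher on D105 in 8 of 8 heifers, although the days overlapped. It was at 0.01 (SE 0.14, FDR = 0.985) in IVP-Normal and 0.16 (SE 0.14, FDR = 0.704) in IVP-LOS heifers. The remaining 38 members were not called in AI heifers, although with the heifer as a replicate block *KDM4A*, an H3 lysine 9 and lysine 36 demethylase, was called as well (0.19, SE 0.06, FDR = 0.0459), in the fit that called 17.1% of all genes. *KDM5A* had a log2 change of 0.13 (SE 0.07, FDR = 0.317) in AI, −0.05 (SE 0.14, FDR = 0.917) in IVP-Normal and 0.44 (SE 0.14, FDR = 0.185) in IVP-LOS heifers. Without 604 and 664 the IVP-LOS value was 0.20 (SE 0.09, FDR = 0.554). Of the related genes, 2 of 17 other writers and erasers were called lower in AI heifers, *RIOX1* at −0.64 (SE 0.08) and *SETMAR* at −0.39 (SE 0.12). Of the 32 complex partners, *MLLT3* and *ATF7IP* were called higher, at 0.52 (SE 0.15) and 0.29 (SE 0.06), and *CBX3*, an HP1 protein, lower, at −0.15 (SE 0.04). None of either list was called in IVP-Normal or IVP-LOS heifers.

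**Figure D3:**
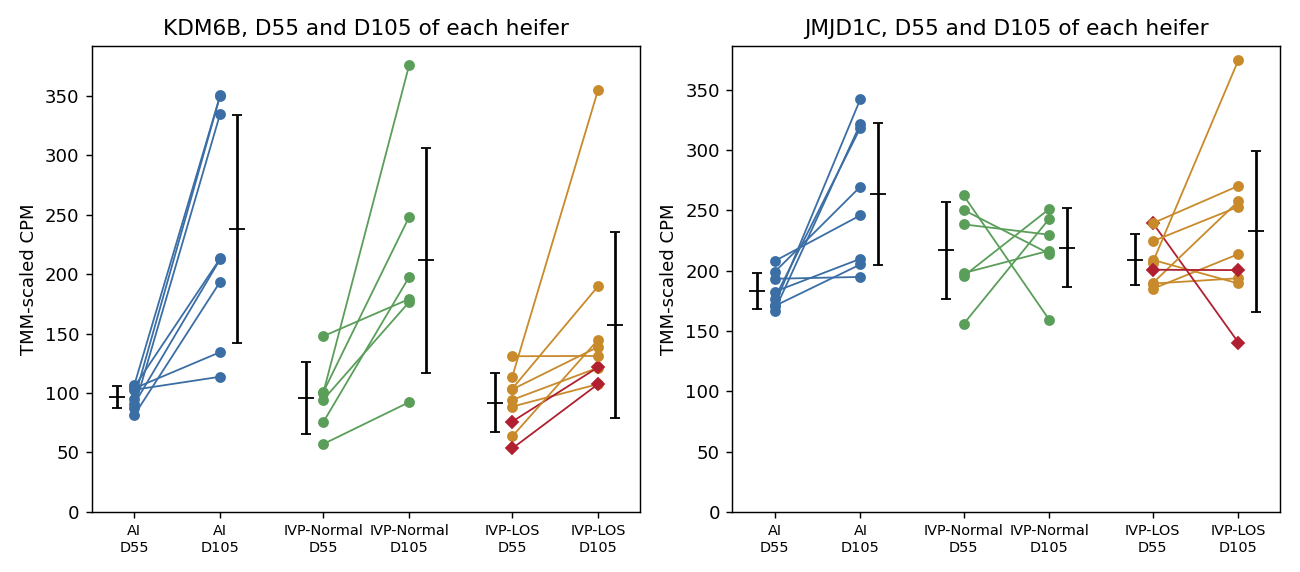
Levels of *KDM6B* and *JMJD1C* (TMM-scaled CPM, vertical axis) on D55 and D105, with a line for each heifer, diamonds for 604 and 664, and mean and SD of each group and day beside the points. The *KDM6B* lines rise in all 3 groups, to 350.4, 375.9 and 355.2 CPM at the highest, while those of *JMJD1C* rise in AI heifers and cross in IVP-Normal heifers.

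A difference between groups in the change from D55 to D105 was tested directly. No member and 0% of all genes were called for IVP-Normal against AI or for IVP-LOS against AI, by edgeR or by DESeq2, with 6 and 0 members at an unadjusted p under 0.05, beside 3.39% and 4.96% of all genes. The change of *JMJD1C* was lower in IVP-Normal than in AI heifers by a log2 value of −0.51 (SE 0.18, edgeR FDR = 0.9999), and that of *KMT2E* by −0.42 (SE 0.13, FDR = 0.9999). For *KDM6B* the difference was −0.16 (SE 0.36, FDR = 0.9999) in IVP-Normal and −0.52 (SE 0.32, FDR = 0.909) in IVP-LOS heifers. These fits do not use the pairing of the libraries within a heifer. With the heifer as a replicate block, 0 members and 0% of all genes were called in both comparisons as well, and the *KDM6B* differences were −0.13 (SE 0.30, edgeR FDR = 0.930) and −0.48 (SE 0.26, FDR = 0.479). That of *JMJD1C* in IVP-Normal heifers was −0.48 (SE 0.21, FDR = 0.754). The *JMJD1C* call in AI heifers is therefore not shown to be particular to that group.

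Cell type markers moved between the days as well. Of the 5 monocyte markers, 2 were called higher on D105 in AI heifers and 0 in IVP-Normal and IVP-LOS heifers. The neutrophil markers were followed further. Their sum went from 176, 307 and 431 CPM on D55 (lowest, median, highest) to 547, 1116 and 1937 CPM on D105 in AI heifers, and 5 of 5 markers were called higher. It went from 115.3, 230 and 316 CPM to 385, 587 and 1871 CPM in IVP-Normal heifers, with 3 of 5 called. In IVP-LOS heifers, 604 and 664 included, it went from 134, 275 and 496 CPM to 72.5, 401 and 5595 CPM, with 0 of 5 called. All 5 markers had a log2 fold change above 0 in each group, with a median of 1.57 in AI, 1.46 in IVP-Normal and 1.60 in IVP-LOS heifers. For 0 of the 5 was a difference from AI in the change between days called, in either IVP group. The relation of the neutrophil sum to the 8 members named in the calls above (the 6 of the D105 pair contrast, *KDM6B* and *JMJD1C*) was computed over the 21 heifers other than 604 and 664. It was computed on log2 values and also within library sets, as 32 relations whose p-values were adjusted together. This was added after the values were seen. The remaining members and all other genes were not looked at in this way, so the relations are not shown to be particular to these 8. Of the 8, *KDM6B* had the highest r over all 21 heifers on D105, while on D55 and within the set BACKUP that of *KDM5B* was higher. For *KDM6B* on D105 Pearson's r was 0.824 and Spearman's rho 0.879 over 21 heifers (permutation p = 1e-05 for both, the smallest the draws can give, adjusted p = 0.00032), and r was 0.818 without the 2 heifers farthest from the median sum. Within the set BACKUP r was 0.827 (n = 15, permutation p = 5e-05) and within the set New 0.908 (n = 6, exact permutation p = 0.0194). On D55 r was 0.599 (rho 0.606, permutation p = 0.00398), and it came to 0.395 without the 2 farthest heifers. The heifer with the highest neutrophil sum on D105, 637 with 5595 CPM, had 355.2 CPM of *KDM6B*, and 557, the lowest of the 21 with 179 CPM, had 107.5 CPM.

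*KDM5B* also followed the neutrophil sum, with r = 0.703 and rho = 0.704 on D105 (permutation p = 0.00081 and 0.00069, adjusted p = 0.00648, r = 0.589 without the 2 farthest heifers) and r = 0.646 on D55 (adjusted p = 0.00973), where r was 0.336 without the 2 farthest. Within BACKUP r was 0.846 and within New 0.632 (n = 6, exact permutation p = 0.204). For *KDM7A* and *SETD1B* the D105 values were 0.514 and 0.545 (adjusted p = 0.0472 and 0.0384), and they came to 0.198 and 0.0899 without the 2 farthest heifers. Over all 21 heifers these relations thus depended much on those animals. Within BACKUP r was 0.724 and 0.710 (rho 0.614 and 0.518, adjusted permutation p = 0.0116 and 0.0138), and 0.339 and 0.227 without the 2 farthest. Within New r was −0.0453 and −0.225 (n = 6). For *JMJD1C* r was 0.626 (adjusted p = 0.0116) on D105 and −0.242 on D55. Its D105 value came to 0.425 without the 2 farthest heifers. Within BACKUP it was 0.706 and within New 0.247 (n = 6, exact permutation p = 0.592). *KDM5A* showed no such relation that passed the test, with r = 0.301 and rho = 0.0818 on D105 (permutation p = 0.184 and 0.725) and r = 0.0109 on D55. In 604 and 664 the neutrophil sums were the lowest of D105 and *KDM5A* the highest. Among the 21 others *KDM5A* lay between 69.97 and 115.5 CPM over sums from 179 to 5595 CPM. None of those heifers had a sum as low as the 72.5 and 93.9 CPM of the pair, so the relation at such sums was not tested. In these relations both measures come from 1 library and share its depth and scaling. No such relation was computed for the monocyte markers, so the relations are not shown to be particular to neutrophil markers.

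**Figure D4:**
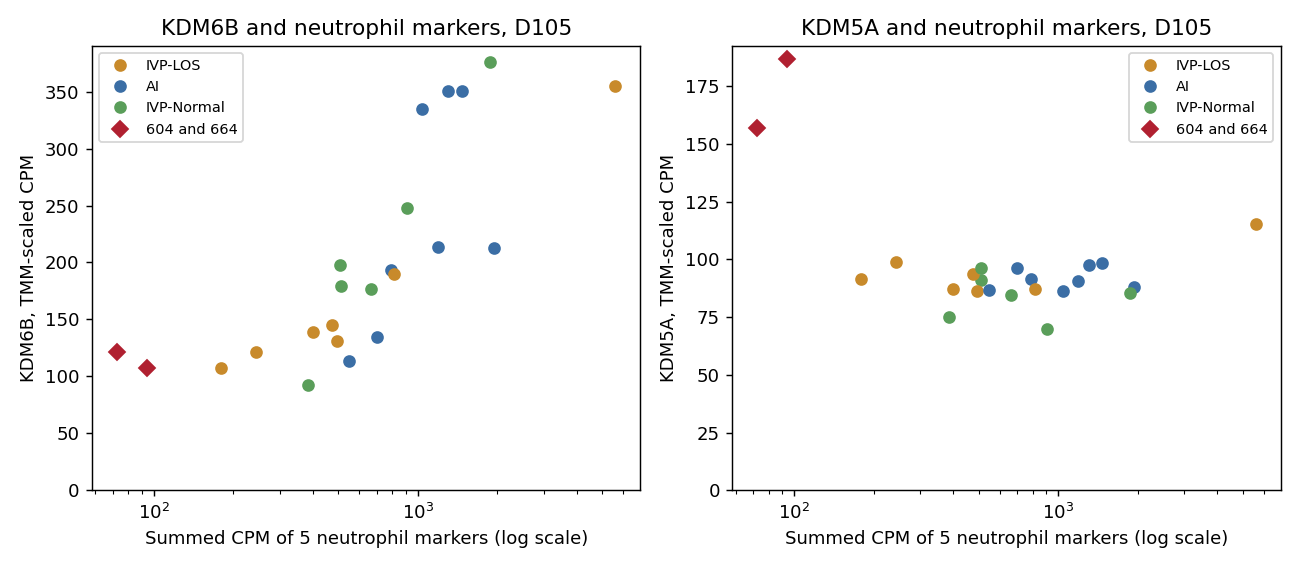
*KDM6B* (left) and *KDM5A* (right) in TMM-scaled CPM on D105 against the summed CPM of 5 neutrophil markers (horizontal axis, log scale), with a point for each of 23 heifers coloured by group and diamonds for 604 and 664. *KDM6B* rises along the axis (r = 0.824 over the 21 heifers other than the pair), while *KDM5A* stays between 69.97 and 115.5 CPM except in the diamonds at the left, at 156.9 and 186.7 CPM.

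Because the pair lay above all other heifers in the share of reads on no gene, the trend of each member along that axis was fitted in the 21 other heifers. Their D105 libraries were the reference of the contrast the members were chosen by, and their D55 libraries had no part in it. On D105 edgeR called 0 members and 0.281% of all genes, with 6 members at an unadjusted p under 0.05, beside 19.6% of all genes. DESeq2 called 1 (*KDM1B*), and 5.63% of all genes. Slopes were above 0 for 13 of 40 members and 50.8% of all genes, and the median was −0.01 per percentage point. Within the set BACKUP, where 6.62% of all genes were called, 4 members were called, all with a falling slope, namely *SETD1B* (−0.08, SE 0.02, FDR = 0.0263), *KDM7A* (−0.12, SE 0.03, FDR = 0.0289), *KDM1B* (−0.10, SE 0.02, FDR = 0.0300) and *NSD3* (−0.07, SE 0.02, FDR = 0.0412). Within the 6 heifers of the set New 0 members and 0% of all genes were called. The slope of *KDM5A* on D105 was 0.02 (SE 0.02, FDR = 0.501). Its correlation with the share had r = 0.291 (rho 0.334, permutation p = 0.203 and 0.141) over 21 heifers, −0.0519 within BACKUP and 0.945 within New (n = 6, exact permutation p = 0.00417), and the pooled r was 0.00538 without the 2 farthest heifers.

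On D55, when all 23 libraries are of the set New, edgeR again called 0 members, where 0.614% of all genes were called. At an unadjusted p under 0.05 there were 14 members, beside 14.8% of all genes. Of the 40 slopes 33 were above 0, against 49.5% over all genes, with a median of 0.02 per percentage point against 0.00 over all genes. *KDM5A* had the smallest FDR of the members, with a slope of 0.08 (SE 0.02, FDR = 0.0580), and it was called by DESeq2 (FDR = 0.00952) and after upper-quartile scaling (FDR = 0.0494, with 0.564% of all genes called). Pearson's r of *KDM5A* with the share was 0.689 and rho 0.669 (permutation p = 0.0003 and 0.00107, adjusted over 4 relations p = 0.0012), and r was 0.582 without the 2 farthest heifers. The share ran from 23.2% to 30.6% in these 21 heifers and *KDM5A* from 54.0 to 109.5 CPM, and no heifer reached the shares of 36.1% and 38.0% seen in the pair on D105. *SETD5* and *SETDB1* were called by DESeq2 in addition, which called 2.87% of all genes. Of the related genes, *MLLT10* was called with a rising slope (0.05, SE 0.01), and *RBBP4* (−0.03, SE 0.01) and *RIOX1* (−0.07, SE 0.01) with a falling slope.

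**Figure D5:**
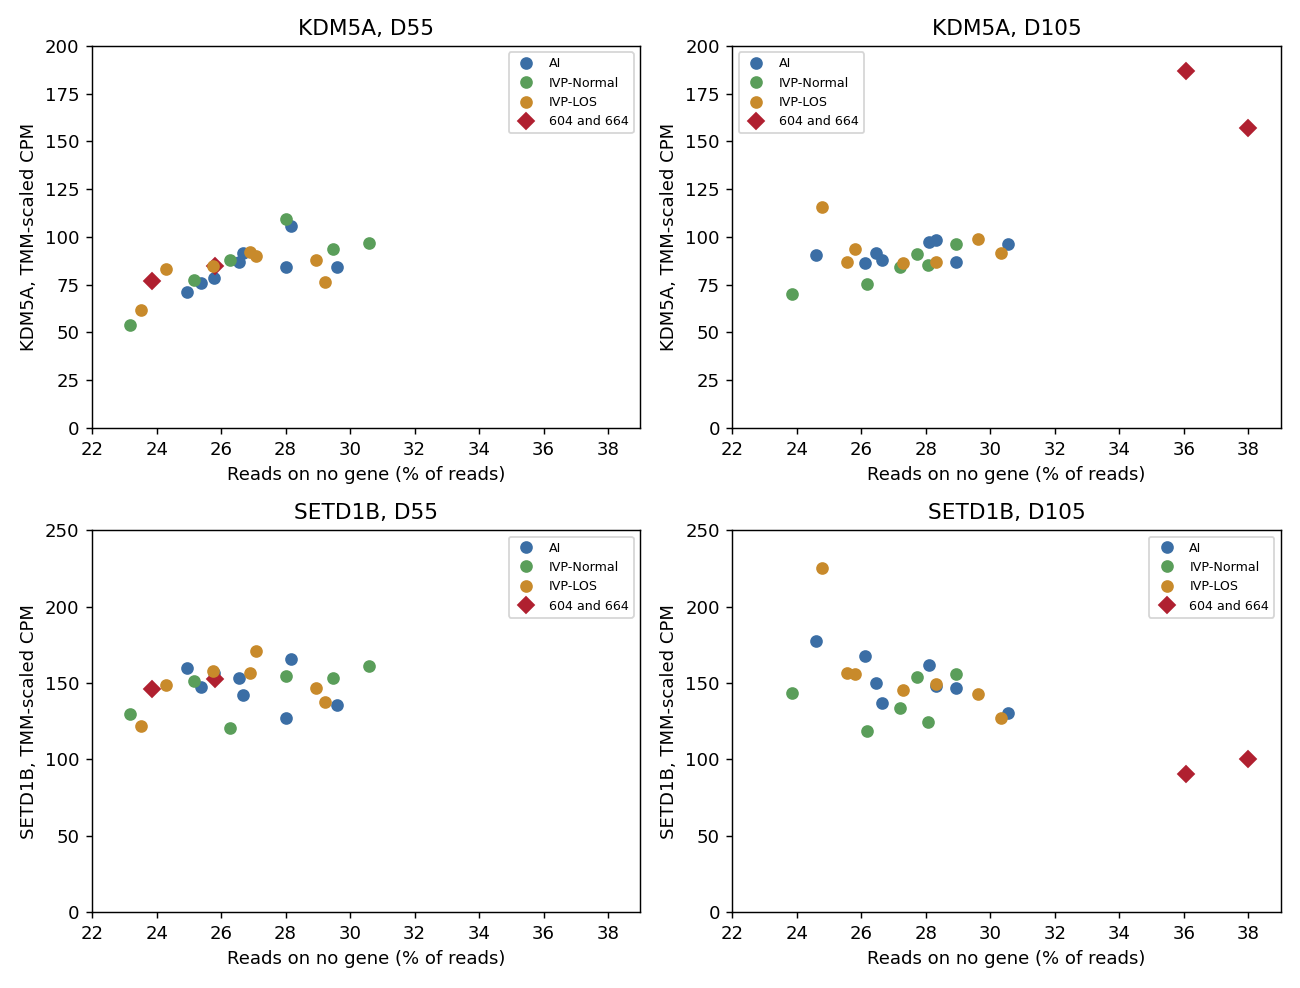
*KDM5A* (top) and *SETD1B* (bottom) in TMM-scaled CPM against the percentage of reads assigned to no gene (horizontal axis) on D55 (left) and D105 (right), with a point for each of 23 heifers coloured by group and diamonds for 604 and 664. On D55 *KDM5A* rises with the share from 54.0 to 109.5 CPM, and on D105 the diamonds lie alone at 36.1% and 38.0%, above all others for *KDM5A* and below all others for *SETD1B*.

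Members differed in how far they varied among the 21 other heifers. The coefficient of variation on D105 had a median of 12.2% over the 40 members. It was lowest for *SETDB1* (5.07%), *KDM2A* (6.02%) and *DOT1L* (6.34%) and highest for *KDM6B* (44.5%), *KDM7A* (26.9%) and *KDM5B* (26.6%). For *KDM5A* it was 10.2% on D105 and 15.3% on D55. On D105 heifer 637 had the highest level of 12 of the 40 members, and on D55 heifer 560 had the lowest level of 16. The share of all genes for which these heifers were highest or lowest was not computed, so the counts are not shown to be particular to the members.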

How the data were processed

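Leukocyte RNA from buffy coats was sequenced as paired-end reads. The authors trimmed the reads, aligned them to the bovine genome ARS-UCD1.2 with HISAT2 2.1.0 and counted reads per RefSeq gene with HTSeq-count in union mode, and the deposited values are these raw counts. The strand setting is not given in the sources used here, so reads of overlapping genes on opposite strands may not be separated. Groups were taken from the sample labels. Counts were tested on all genes with edgeR 4.0.16 (R 4.3.3, TMM, filterByExpr with a minimum count of 10, quasi-likelihood F-test), with only the compared libraries in each fit. The SE of a log2 fold change is its size divided by the square root of F. The study used likelihood ratio tests, and DESeq2 1.42.0 with its likelihood ratio test was an alternative, beside RLE and upper-quartile scaling, no filter, library sets apart, a covariate and libraries left out. Both libraries of a heifer deviated together from their group means (mean r 0.517, range 0.325 to 0.772, n = 23 heifers, against −0.023 for different heifers), so fits across days with the heifer as a replicate block were run beside the reported ones, which have no block. The fits were tested on simulated counts. Within each group and day no libraries were duplicates, and libraries of different groups or days were not compared for this. The members, the related gene lists and the markers were chosen with earlier results of these data known. All members may be named. In the D105 pair contrast values per heifer are given for the 8 highest and 5 lowest by fold change, for those called and for *JMJD1C*. In other comparisons mainly those called are named. Levels were not compared between genes, since no transcript lengths were used. Fetus number was not analysed here.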

Additional observations from a re-analysis of the deposited data

Results flagged for a closer look

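In each group and day the library farthest from the rest was looked at for every member (240 combinations). In 7 of them 1 heifer stood apart by more than Dixon's 95% limit, which chance alone would give in about 1 of 20. On D55, *DOT1L* was at 76.4 CPM in IVP-Normal heifer 560 (others 96.5 to 108.99 CPM) and *KDM5A* at 61.8 CPM in IVP-LOS heifer 656 (others 76.4 to 92.2 CPM). On D105, *KDM1A* was at 91.4 CPM in AI heifer 533 (others 62.4 to 71.8 CPM). In IVP-Normal heifers of that day, *JMJD1C* was at 159.1 CPM in 633 (others 214.1 to 251.3 CPM), *KDM4A* at 239.0 CPM in 628 (others 160.8 to 181.3 CPM) and *KDM5B* at 28.0 CPM in 519 (others 49.3 to 68.3 CPM). *KDM6B* was at 355.2 CPM in IVP-LOS heifer 637 on D105 (others 107.5 to 189.9 CPM), the heifer with the highest sum of neutrophil markers.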

How the results depend on the processing

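Of 92 recomputed counts of members called, 79 stayed within 1.5 times the reported count. With either heifer of the pair left out on D105, 1 library remains on that side, so only fold changes are given. That of *KDM7A* was −1.37 and −1.21 and that of *SETD5* −0.32 and −0.34. For heifers 604 and 664 on D105 the count of 6 came to 8 under DESeq2's likelihood ratio test, with *EHMT2* and *SETD7* in addition. It came to 0 with the share of reads on no gene as a covariate. Under DESeq2's likelihood ratio test the counts across days came to 4 (AI), 3 (IVP-Normal) and 1 (IVP-LOS), and the trends with that share to 1 on D105 and 3 on D55. The IVP-Normal count across days was 1 without a filter on low counts, and the D55 trend had 1 after upper-quartile scaling. Within the library set BACKUP the D105 trend had 4. With the heifer as a replicate block, IVP-Normal and IVP-LOS had 1 member each across days and AI had 3, and in IVP-LOS without 604 and 664, an alternative added after the data were seen, it was 0. The block changed no call of a member other than those of *KDM6B* and *KDM4A*. Of 147 recomputed log2 fold changes 16 lost and 2 gained a call. The 3 that reversed were all of *KDM5A* and not called, namely −0.07 for the pair on D55, which ranged from −0.15 to 0.022 with either heifer left out and was 0.093 with the covariate, and the D105 trend, −0.0036 per point within BACKUP. The causes were not tested. The Ensembl gene counts were not run, because their identifiers are not paired with symbols. The contrast of 604 and 664 rests on 2 heifers whose libraries had the lowest totals.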
